A study of Homo sapiens with 183 samples.

Results

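The transcripts of 10 genes known to respond to bone morphogenetic proteins (BMPs) or to transforming growth factor-beta (TGF-beta) were followed in RNA-seq libraries of human cancer cell lines. The genes were ID1, ID2, ID3, ID4, BMP2, BMP4, SMAD6, SMAD7, TGFBI and SKIL, taken by name as 10 of the 19875 gene names in 8 tables covering 183 libraries of 9 lines. They were chosen with earlier results of these data known. No library came from cells given a BMP or TGF-beta, so "response genes" names what these genes are known for and was not tested here. Values are TPM (transcripts per 1e+06), which are scaled by transcript length and by the total of the library, so that they can be compared between genes. Depth is unknown because the tables hold no counts.

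The study asked how KLF5, a zinc-finger transcription factor of epithelial cells, and its partners RUVBL1 and RUVBL2, paired ATPases that act in chromatin and transcription complexes, set the identity of pancreatic ductal adenocarcinoma (PDAC) cells. The classical lines AsPC-1 and SUIT-2, the basal-like lines T3M-4 and BxPC-3, and CFPAC-1 stably expressed Cas9 and received a guide RNA on a lentivirus with a GFP marker. RNA was taken on day 5 from the whole infected population, not from clones, and the control guide was sgRosa. Knockout groups were sgKLF5, sgRUVBL1, sgRUVBL2, sgCDK1 (CDK1 drives mitosis) and sgRPA3 (RPA3 is part of the protein that coats single-stranded DNA), and in AsPC-1 also sgSERPINB5 (an epithelial serpin) and sgCHD4 (a nucleosome remodeller). The study used independent guides for KLF5, RUVBL1, RUVBL2, SERPINB5 and the control. It lists more than 1 guide for CHD4, but only 1 each for CDK1 and RPA3. The labels do not say which library carried which guide. Separate guide experiments in 1 line are numbered here, and each was compared with its own sgRosa libraries. In the drug experiments cells were kept for 24 h in CB-6644, an allosteric inhibitor of the RUVBL1/2 ATPase, or in its solvent DMSO. AsPC-1 and T3M-4 cells for this carried an empty lentivirus (Lv-Empty) or a virus with an inhibitor-resistant variant, RUVBL1_A62T or RUVBL2_dF109, with 3 CB-6644 libraries and 1 DMSO library for each construct. The colorectal line T84, the melanoma line A375, the tuft-cell-like small cell lung line H1048 and the alveolar rhabdomyosarcoma line RH30 carried no construct and had 4 libraries per arm.

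BMPs and TGF-betas are secreted ligands that bind paired serine/threonine kinase receptors. BMP receptors mark SMAD1, SMAD5 and SMAD9, TGF-beta receptors mark SMAD2 and SMAD3, and the marked SMADs enter the nucleus with the shared partner SMAD4 to switch genes on or off. ID1 to ID4 are textbook BMP targets. They lack a DNA-binding region and hold E proteins away from DNA, which keeps cells from differentiating. SMAD6 and SMAD7 are inhibitory SMADs that the pathway switches on to silence itself, SKIL is a SMAD-binding repressor that TGF-beta first destroys and then induces, and TGFBI is a matrix protein named for its induction by TGF-beta. SMAD4 is often lost in PDAC.

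Several libraries and labels limit what follows. In the control libraries HNF4A stood at 40.1 to 75.4 TPM in AsPC-1, TP63 at 66.6 to 109 TPM in T3M-4, POU2F3 at 451 to 501 TPM in H1048, MYOD1 at 684 to 770.3 TPM in RH30, CDX2 at 84.8 to 97.8 TPM in T84 and SOX10 at 231 to 238 TPM in A375. Not every marker followed its line. The melanoma gene MITF was higher in CFPAC-1 (22.5 to 28.7 TPM) than in A375 (16.4 to 18.5 TPM). The immune gene PTPRC was at 5.3 to 18.3 TPM in T3M-4, and the fibroblast gene COL1A1 at 9.62 to 50.4 TPM in CFPAC-1. The tuft-cell gene AVIL was at 28.9 to 33.7 TPM in RH30. The melanoma genes PMEL (0.591 to 1.29 TPM) and MLANA (1.06 to 1.41 TPM) were near 0 in A375, the tuft-cell gene ASCL2 was lower in H1048 (6.71 to 9.29 TPM) than in T84 (33.2 to 39.2 TPM), the intestinal gene CDH17 was lower in T84 (320.3 to 373 TPM) than in AsPC-1 (652 to 1224 TPM), and the endothelial gene PECAM1 was at 40.3 to 43.2 TPM in RH30. RUVBL1 mRNA fell in every sgRUVBL1 group (log2 change -1.87 to -1.14) and RUVBL2 mRNA in every sgRUVBL2 group (-1.76 to -1.24). KLF5 mRNA fell in the libraries labelled sgKLF5 of CFPAC-1 (-0.41), rose in AsPC-1 experiment 1 (0.53) and T3M-4 experiment 2 (0.78) and did not pass elsewhere. Cas9 cutting need not lower a transcript, so it does not check those labels. In CFPAC-1, 6 of 17 libraries were most like a group other than their own, all 4 labelled sgRosa among them. The library labelled sgRosa 2 was most like sgKLF5 (median correlation of log2 levels 0.989, against 0.979 with its own group) and that labelled sgRosa 4 most like sgRUVBL2 (0.988 against 0.986), while those labelled sgRosa 1 (0.989 against 0.986) and sgRosa 3 (0.992 against 0.987) were most like sgCDK1. CDK1 stood at 86.5 TPM in the libraries labelled sgRPA3 but at 200.4 TPM in those labelled sgCDK1. CFPAC-1 results are therefore given for libraries by label, and again without sgRosa 2 and 4, which leaves controls that are also in doubt. Libraries sgRosa 2 and 4 were picked after the data were seen because they resembled knockout groups. Leaving them out favours a difference from those groups, so the calls it adds are no support. In 5 other experiments 1 to 3 libraries were most like another group. In BxPC-3 experiment 1 the fibroblast genes COL1A1 and COL1A2 stood at 42.0 to 70.3 and 25.6 to 41.0 TPM in sgKLF5 and at 12 to 13.3 and 5.49 to 6.46 TPM in sgRosa. The study calls the replicates of its knockout RNA-seq biological. The labels do not say whether the CB-6644 replicates were separate cultures, so their p-values measure the spread between these libraries, which may be technical.

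Baseline levels set the lines apart. In the sgRosa or DMSO libraries ID1 was highest in T3M-4, at 1073 to 1430 TPM, above every control library of every other line. BxPC-3 followed at 251 to 427 TPM, and AsPC-1 ranged from 107 to 388 TPM. H1048 at 191 to 215 TPM, RH30 at 158 to 190 TPM, SUIT-2 at 165 to 182 TPM, CFPAC-1 at 43.9 to 143 TPM, A375 at 99.5 to 149.5 TPM and T84 at 100.5 to 134 TPM each overlapped a neighbour in the order. The AsPC-1 range followed the experiment. ID1 stood at 388 and 369 TPM in the sgRosa libraries of experiment 1 and at 147, 157, 138 and 131 TPM in those of experiment 3. Lines and numbered experiments were fitted separately, so levels set across them are given side by side without a test.

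The other ID genes had different orders. ID2 was highest in H1048 (225 to 253 TPM) and lowest in BxPC-3 (0.402 to 1.25 TPM) and A375 (1.95 to 3.58 TPM). ID3 was high in H1048 (324 to 335 TPM) and T3M-4 (209 to 326 TPM), intermediate in RH30 (89.2 to 99.3 TPM), A375 (49.9 to 82.2 TPM), T84 (35.4 to 40.6 TPM) and BxPC-3 (10.2 to 36.5 TPM), and at most 2.69 TPM in AsPC-1, SUIT-2 and CFPAC-1. ID4 was a gene of H1048 (46.5 to 53.4 TPM) and T3M-4 (1.88 to 8.32 TPM), with at most 1.35 TPM in the control libraries of other lines. H1048 thus held the highest ID2, ID3 and ID4, and T3M-4 the highest ID1, although ID3 overlapped between these lines.

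Among the ligands, BMP4 was abundant in AsPC-1 (69.0 to 235 TPM), T84 (99.95 to 105 TPM), SUIT-2 (65.2 to 100.1 TPM) and CFPAC-1 (60.8 to 80.4 TPM) and at most 13.7 TPM elsewhere. BMP2 was highest in H1048 (50.3 to 52.7 TPM), followed by BxPC-3 (13.3 to 18 TPM) and T84 (10.8 to 12.5 TPM). Of the inhibitors, SMAD6 was highest in AsPC-1 (40.7 to 66.2 TPM) and lowest in RH30 (2.07 to 2.55 TPM), whereas SMAD7 lay within 1.16 to 13.0 TPM in every line. SKIL lay between 4.91 and 31.5 TPM over all control libraries. TGFBI was highest in CFPAC-1 (673 to 949 TPM) and AsPC-1 (313 to 688 TPM), and was listed at 0.0816 to 0.129 TPM in H1048. SMAD4, which carries both branches, was near 0 in SUIT-2 (0.0922 to 0.184 TPM), BxPC-3 (0.0225 to 0.362 TPM) and CFPAC-1 (0 to 0.114 TPM) and at 4.42 TPM or more in the control libraries of the other lines. ID1 was at 43.9 TPM or more in those SMAD4-poor lines as well.

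**Figure D1:**
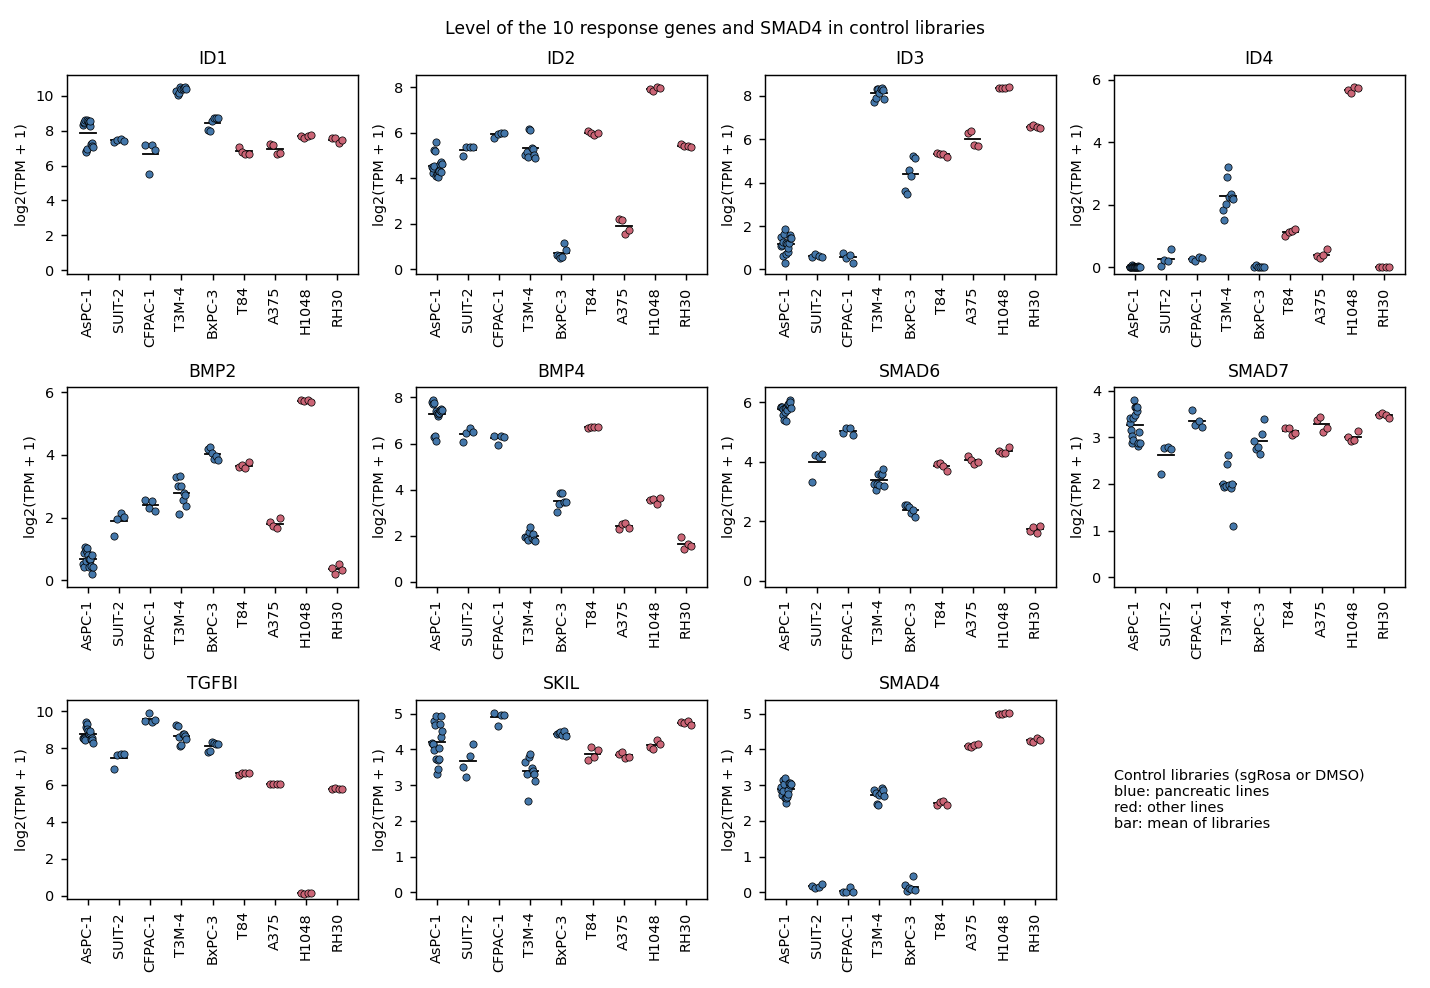
Level of each gene and of SMAD4 in every control library (sgRosa or DMSO), as log2(TPM + 1), by line; blue points are pancreatic lines, red points the other lines, and the bar is the mean. ID1 in T3M-4 (1073 to 1430 TPM) lies above every other line, and SMAD4 is near 0 in SUIT-2, CFPAC-1 and BxPC-3.

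Changes are given as log2 change on the log2(TPM + 1) scale, treated minus control, ± SE, with adjusted p from limma over all tested genes. On this scale the change of a low gene is understated. A gene was tested where its mean over the fitted libraries was at least 1 TPM, and "passed" means an adjusted p under 0.05. Over 47 comparisons the 10 genes gave 470 values, of which 406 were tested. In bulk RNA a lower value may come from fewer cells holding the transcript or from less of it per cell, which cannot be told apart. The median change of all genes ran from -0.27 to 0.33 over the comparisons and exceeded 0.1 in either direction in 25 of them, so small changes should be read against it.

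KLF5 knockout lowered ID1 and raised ID2 and ID3. ID1 fell in 7 of 8 comparisons. ID2 rose in 4 of 6 and ID3 in 4 of 5, leaving out for each 1 comparison in which it was tested only because of its level in sgKLF5. No call had the other direction for any of the 3. ID1 stood at 388 and 369 TPM in the AsPC-1 experiment 1 sgRosa libraries and at 109 (lowest), 121 (median) and 159 (highest) TPM in the 6 sgKLF5 libraries, a change of -1.6 ± 0.12 (adjusted p = 7.03e-06). In AsPC-1 experiment 3 the sgRosa libraries gave 147, 157, 138 and 131 TPM and the sgKLF5 libraries 39.6, 44.2, 54 and 61.4 TPM, -1.52 ± 0.10 (adjusted p = 1.47e-09). SUIT-2 had the deepest fall of ID1, from 165, 173, 182 and 172 TPM to 23.7, 24.8, 31.8 and 39 TPM, -2.52 ± 0.17 (adjusted p = 0.000116). In none of these 3 did the groups overlap.

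Of the basal-like lines, BxPC-3 gave a fall of ID1 in both experiments. In BxPC-3 experiment 1 it went from 262 and 251 TPM to 106, 96, 107 and 107 TPM (-1.3 ± 0.09, adjusted p = 6.9e-06), and in experiment 2 from 369, 414, 427 and 417 TPM to 173, 198, 186 and 201 TPM (-1.1 ± 0.08, adjusted p = 8.41e-09). In T3M-4, the line with the highest ID1, the changes were small and differed in direction, with no overlap of the groups in either experiment. Experiment 1 gave 1424 and 1355 TPM against 1823, 1757, 1510.3 and 1556 TPM (0.25 ± 0.12, adjusted p = 0.229), and experiment 2 gave 1319, 1380.1, 1429.5 and 1334 TPM against 1197, 1249.7, 1158 and 1192 TPM (-0.19 ± 0.07, adjusted p = 0.0369). The small T3M-4 fall no longer passed without sgKLF5 library 1, 3 or 4 or sgRosa library 2 or 3 (-0.21 to -0.17). The differences between lines were not tested.

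In CFPAC-1 ID1 stood at 143, 43.9, 142 and 117 TPM in the libraries labelled sgRosa 1 to 4 and at 51.9, 47.4 and 52.2 TPM in those labelled sgKLF5, -0.99 ± 0.27 (adjusted p = 0.0232). The library labelled sgRosa 2, at 43.9 TPM, lay below all 3 sgKLF5 libraries. Without it ID1 changed by -1.39 (adjusted p = 4.22e-08), and without sgRosa 2 and 4 by -1.48 (adjusted p = 4.95e-08). Since sgRosa 2 was most like sgKLF5, leaving it out favours a larger fall, and these p-values add no support. Leaving out sgKLF5 1, 2 or 3 or sgRosa 1 or 3 instead ended the call (down to -0.82).

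ID2, which like ID1 blocks E proteins, moved the other way. In AsPC-1 experiment 1 it went from 16.2 and 17.1 TPM to 28.4 (lowest), 34.5 (median) and 37.9 (highest) TPM, 0.99 ± 0.11 (adjusted p = 8.5e-05). In experiment 3 it went from 23.8, 18.1, 25.1 and 23.4 TPM to 29.9, 37.4, 32.8 and 35.5 TPM (0.57 ± 0.11, adjusted p = 0.000391). T3M-4 experiment 2 showed the same direction, from 39.2, 38.3, 31.5 and 28.9 TPM to 68, 70.6, 70.4 and 66.2 TPM (0.99 ± 0.11, adjusted p = 1.1e-06). None of these groups overlapped. SUIT-2 gave 30.1, 40.2, 39.7 and 39.8 TPM in sgRosa and 58.1, 54.7, 66.9 and 74.5 TPM in sgKLF5 (0.75 ± 0.16, adjusted p = 0.0338), a call that was lost without any single library but sgRosa 1 (0.65 to 0.82) and that shrank to 0.50 on another scaling. BxPC-3 held little ID2, and in experiment 1 it rose from 0.537 and 0.484 TPM to 4.12, 3.34, 1.4 and 3.15 TPM (1.35 ± 0.28, adjusted p = 0.00743), a call lost without either sgRosa library (1.22 to 1.58). ID2 there was tested only because the sgKLF5 libraries raised its mean, so it had to differ. It was below the limit in experiment 2, and in CFPAC-1 it stood at 53.9 to 62.7 TPM against 55.7 to 70.6 TPM.

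ID3 rose where it was low and where it was high. In AsPC-1 experiment 3 it went from 1.3, 1.99, 1.76 and 1.71 TPM to 6.36, 5.23, 4.71 and 3.75 TPM (1.15 ± 0.29, adjusted p = 0.0052). In T3M-4 experiment 2 it went from 316, 326, 309 and 234 TPM to 487, 459.7, 422 and 475 TPM (0.65 ± 0.09, adjusted p = 1.9e-05), and in experiment 1 from 313 and 281 TPM to 709.9, 461, 653 and 618 TPM (1.02 ± 0.19, adjusted p = 0.0218). The T3M-4 experiment 1 call rests on few libraries and was lost without any single one but sgKLF5 2 (0.94 to 1.15). BxPC-3 experiment 1 gave 11.2 and 10.2 TPM against 24.3, 26, 28.2 and 32.2 TPM (1.29 ± 0.14, adjusted p = 0.000132), but experiment 2 gave 23.2, 18.9, 36.5 and 34.2 TPM against 23.5, 23.5, 29.2 and 29.1 TPM (-0.06 ± 0.16, adjusted p = 0.824), with overlapping groups. Whether the COL1A1 and COL1A2 difference of BxPC-3 experiment 1 had a part in its results was not tested, and in experiment 2 COL1A2 was at 0.0410 to 0.162 TPM in both groups. In AsPC-1 experiment 1 ID3 changed by 1.45 ± 0.23 (adjusted p = 0.0011) and passed the expression limit only through sgKLF5.

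ID4 was tested for KLF5 only in T3M-4. In experiment 2 it went from 3.76, 4.11, 3.65 and 3.54 TPM to 9.65, 9.41, 9.38 and 9.28 TPM (1.13 ± 0.10, adjusted p = 5.29e-08). In experiment 1 the sgRosa libraries gave 6.47 and 8.32 TPM and the sgKLF5 libraries 16, 6.18, 15.5 and 17.8 TPM (0.74 ± 0.41, adjusted p = 0.274). The low value is sgKLF5 library 2, which was also the least like its group over all genes, and without it ID4 rose by 1.06, ID2 by 0.70, SMAD6 by 1.17 and TGFBI by 1.33, all passing.

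**Figure D2:**
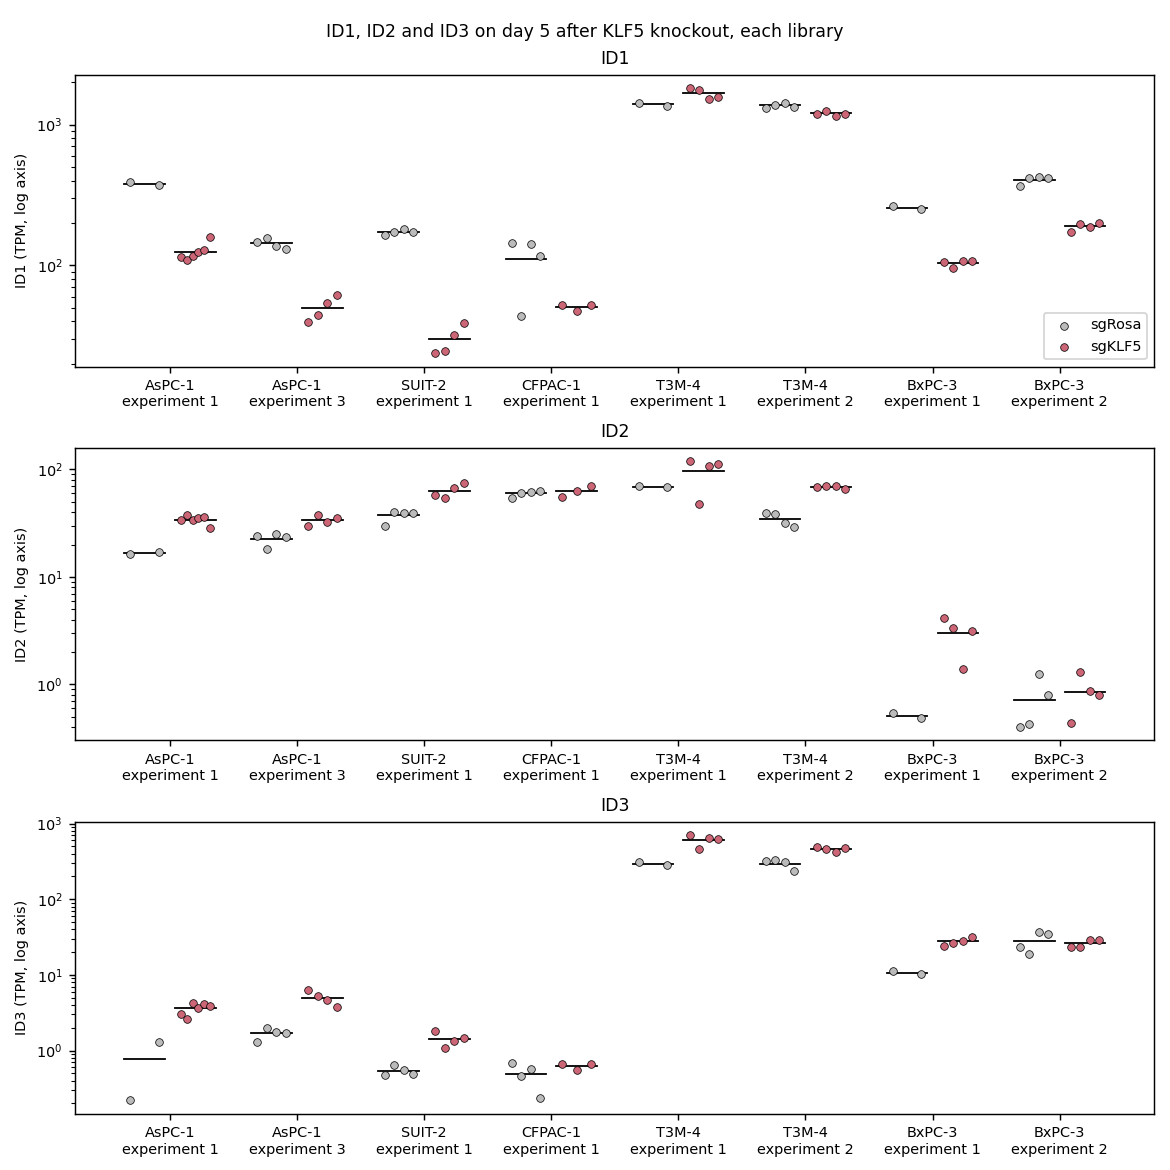
ID1, ID2 and ID3 on day 5 in every sgRosa (grey) and sgKLF5 (red) library of 8 experiments, in TPM on a log axis; the bar is the mean of the libraries. ID1 in sgKLF5 lies below sgRosa outside T3M-4, with the library labelled sgRosa 2 of CFPAC-1 at 43.9 TPM as the exception, and ID2 and ID3 tend to lie above.

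KLF5 and its relatives read GC-rich boxes, and the stretches just upstream of the ID genes that moved in opposite directions are shown for that reason. Each is the 250 bases before the annotated start of the gene in RefSeq (GRCh38.p14), 5′ to 3′ on the gene's own strand. Capitals mark GGGCGG or CACCC on either strand (CCGCCC or GGGTG), which overlap within CCGCCCACCC in ID2. The ID1 stretch is chr20:31605039-31605288 (plus strand), that of ID2 is chr2:8681806-8682055 (plus strand) and that of ID3 is chr1:23559502-23559751 (minus strand).
ID1: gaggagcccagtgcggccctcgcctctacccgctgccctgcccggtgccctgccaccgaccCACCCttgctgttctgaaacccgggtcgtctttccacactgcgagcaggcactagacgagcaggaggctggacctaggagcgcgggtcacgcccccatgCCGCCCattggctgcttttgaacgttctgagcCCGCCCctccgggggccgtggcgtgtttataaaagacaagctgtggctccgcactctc
ID2: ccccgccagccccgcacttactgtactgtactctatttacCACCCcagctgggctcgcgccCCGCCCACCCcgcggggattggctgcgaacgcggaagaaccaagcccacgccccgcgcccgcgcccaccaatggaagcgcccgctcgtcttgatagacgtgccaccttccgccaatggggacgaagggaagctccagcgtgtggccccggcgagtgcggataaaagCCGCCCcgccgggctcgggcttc
ID3: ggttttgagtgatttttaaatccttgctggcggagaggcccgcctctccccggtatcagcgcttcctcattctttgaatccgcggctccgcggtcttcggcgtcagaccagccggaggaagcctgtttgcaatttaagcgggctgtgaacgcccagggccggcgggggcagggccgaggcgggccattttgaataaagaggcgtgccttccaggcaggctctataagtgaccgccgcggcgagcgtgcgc
The ID3 stretch holds no capitals, as neither motif was found in it. In such windows of 250 bases before the start, ID1 held 2 matches of GGGCGG and 1 of CACCC, ID2 held 2 of each and ID3 none. ID4 held 6 and 0, SMAD6 and TGFBI 3 and 2 each, and SKIL 3 and 0. Among all 35116 such windows 42.6% held GGGCGG and 54.7% held CACCC on either strand, so a match is common. The core of the SMAD box, CAGAC on either strand, was in the windows of ID3, ID4 and SKIL, in 2 of 3 windows of BMP4 and 2 of 3 of SMAD7, which have several annotated starts, and in 38% of all windows. These are matches of letters, not shown binding sites.

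The ligands did not move as a pair after KLF5 knockout. BMP2 rose in 2 of 6 comparisons, leaving out 1. In BxPC-3 experiment 2 it went from 15.6, 13.5, 14.6 and 13.3 TPM to 26.5, 27.8, 26.8 and 25.9 TPM (0.87 ± 0.12, adjusted p = 1.73e-05) and in T3M-4 experiment 2 from 4.89, 5.83, 5.52 and 4.15 TPM to 8.97, 9.13, 7.62 and 7.99 TPM (0.63 ± 0.13, adjusted p = 0.000976), with no overlap in either. In AsPC-1 experiment 1, the comparison left out, it was tested only because of its level in sgKLF5 (0.756 and 1.02 TPM in sgRosa), and its call (0.71) was lost without either sgRosa library (0.61 to 0.82). BMP4 fell in SUIT-2 from 65.2, 86.4, 100.1 and 88.7 TPM to 31.4, 29.1, 35 and 40.5 TPM (-1.29 ± 0.17, adjusted p = 0.00388). In BxPC-3 experiment 1 BMP4 rose from 7.27 and 9.38 TPM to 16.2, 19.5, 19.1 and 19.95 TPM (1.08 ± 0.15, adjusted p = 0.000791), while experiment 2 gave -0.20 ± 0.15 (adjusted p = 0.334).

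The direction of BMP4 in AsPC-1 depended on the experiment. Experiment 1 gave 171 and 157 TPM in sgRosa and 202 (lowest), 209.5 (median) and 220.1 (highest) TPM in sgKLF5 (0.36 ± 0.06, adjusted p = 0.00132). Experiment 3 gave 174, 181, 171 and 175 TPM and 144, 148, 148 and 146 TPM (-0.26 ± 0.08, adjusted p = 0.0198). Neither pair of groups overlapped, the rise did not pass on another scaling (0.26), and the fall did not pass without sgRosa library 2 (adjusted p = 0.056). In CFPAC-1 BMP4 changed by -0.33 ± 0.11 (adjusted p = 0.0525) and, without the libraries labelled sgRosa 2 and 4, by -0.44 (adjusted p = 0.0104).

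In T3M-4 experiment 2 both inhibitors and both TGF-beta targets rose. TGFBI went from 428, 439.6, 397 and 363 TPM to 986, 939, 877 and 874 TPM (1.18 ± 0.07, adjusted p = 2.58e-10) and SKIL from 10.2, 9.61, 8.96 and 7.71 TPM to 23.3, 21.3, 23.1 and 20.6 TPM (1.19 ± 0.11, adjusted p = 1.83e-07). SMAD6 changed by 0.75 and SMAD7 by 0.69 in the same libraries. With ID2, ID3, ID4 and BMP2 this made 8 rising genes and 1 falling gene of the 10 tested. Of all tested genes in this comparison 3096 rose and 1490 fell.

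In T3M-4 experiment 1 TGFBI gave 1.02 ± 0.35 (adjusted p = 0.132) and SMAD6 0.88 ± 0.38 (adjusted p = 0.198) with all libraries. TGFBI fell in AsPC-1 experiment 1, from 529 and 491 TPM to 325 (lowest), 358 (median) and 392 (highest) TPM (-0.51 ± 0.09, adjusted p = 0.00147), but stood at 313 to 365 TPM against 355 to 368 TPM in experiment 3. In BxPC-3 experiment 1 SMAD7 changed by 0.66 ± 0.16 (adjusted p = 0.0174) and SMAD6 by 0.46 ± 0.13 (adjusted p = 0.0438), and both calls were lost without either sgRosa library or sgKLF5 2 (0.58 to 0.73 and 0.44 to 0.48), that of SMAD6 also without sgKLF5 1 or 4. In BxPC-3 experiment 2 TGFBI changed by 0.18, lost on another scaling (0.13), and SKIL by 0.33, lost without sgKLF5 1 or 3 or sgRosa 2 or 4 (0.29 to 0.37). SKIL in CFPAC-1 changed by -0.34 ± 0.11 (adjusted p = 0.0458), lost on another scaling (-0.21) and without any single library but sgRosa 2 (-0.42 to -0.27), whereas TGFBI there passed (0.42, adjusted p = 0.00351) without the libraries labelled sgRosa 2 and 4.

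Counts of these genes have to be read against all genes. The members were chosen with earlier results of these data known, so a share above that of all genes is no support. In AsPC-1 experiment 1 6 of 9 passed, where 25.9% of all tested genes did, and in experiment 3 4 of 8 did against 27.8%. SUIT-2 gave 3 of 8 against 3.94%, CFPAC-1 2 of 8 against 16.2%, T3M-4 1 of 10 against 5.72% in experiment 1 and 9 of 10 against 34.6% in experiment 2, and BxPC-3 6 of 9 against 16.2% and 4 of 8 against 34.6%. The median change of the tested members ran from -0.20 in CFPAC-1 to 0.72 in T3M-4 experiment 2, where that of all genes was -0.11 and 0.10. Over the 8 comparisons 35 of 70 values passed, 24 of them rising, 3 of which were tested only through sgKLF5, and 37 passed without the libraries labelled sgRosa 2 and 4 of CFPAC-1. More of all genes that passed rose than fell outside CFPAC-1 and BxPC-3 experiment 1. Those gave 416 up and 1651 down, and 1003 up and 1004 down.

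Of 73 other genes of the BMP and TGF-beta pathways, 14 rose and 5 fell of 43 tested in AsPC-1 experiment 1, 13 rose and 7 fell of 41 in experiment 3, 6 rose and 0 fell of 45 in SUIT-2, 2 rose and 10 fell of 51 in CFPAC-1, 26 rose and 7 fell of 55 in T3M-4 experiment 2, and 14 rose and 6 fell of 48 in BxPC-3 experiment 2. All genes that passed leaned the same way in these comparisons. They split 370 up and 126 down in SUIT-2, 416 up and 1651 down in CFPAC-1, and 3096 up and 1490 down in T3M-4 experiment 2. CCN2 (CTGF in the tables), a secreted matricellular target of TGF-beta and YAP, rose from a mean of 95.1 to 341 TPM in AsPC-1 experiment 1 (1.83), from 13.1 to 83.5 TPM in experiment 3 (2.57) and from 4.03 to 107 TPM in SUIT-2 (4.51). TGFB2, a TGF-beta ligand, rose by 1.57 and 1.76 in the AsPC-1 experiments. FN1, fibronectin, rose from 10.4 to 102 TPM in T3M-4 experiment 2 (3.24), beside INHBA, an activin subunit (2.53), and PMEPA1, which damps TGF-beta signalling (2.00). INHBA also rose in BxPC-3 experiment 2, from 3.41 to 31.3 TPM (2.90). In T3M-4 experiment 1, where 2 rose and 3 fell of 52 tested, ATOH8, a BMP target, changed by 2.81, the receptor TGFBR3 by -2.19 and the activin trap FST by -1.80. In BxPC-3 experiment 1, where 10 rose and 5 fell of 49, FN1 changed by 2.53 and CCN2 by 2.18. COL1A1, named above as a fibroblast gene and listed here as a TGF-beta target, changed by 2.09 in the same libraries. TGFBR3 (-0.86), the ubiquitin ligase SMURF2 (-0.70) and LTBP2, a matrix protein (-0.59), led the falls in CFPAC-1. SMAD4 was tested in the 4 KLF5 comparisons of AsPC-1 and T3M-4 and did not pass in them. In BxPC-3 experiment 1, below the limit, it stood at 0.0225 to 0.154 TPM in sgRosa and 0.353 to 0.502 TPM in sgKLF5.

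Loss of RUVBL1 or RUVBL2 raised ID2 and SKIL and lowered BMP4 in AsPC-1, and loss of RUVBL1 left ID1 higher than loss of KLF5 did outside T3M-4. ID2, the ID gene that rose most often, went in AsPC-1 experiment 2 from 17.3, 15.5, 19.2 and 18.8 TPM in sgRosa to 37.8, 43.3, 46.7 and 45.2 TPM in sgRUVBL1 (1.24 ± 0.09, adjusted p = 1.77e-08). In experiment 3, from sgRosa at 18.1 to 25.1 TPM, it stood at 61.4, 50.9, 46.8 and 48.5 TPM in sgRUVBL1 (1.17 ± 0.11, adjusted p = 1.42e-07) and at 37.6, 31.7, 32.2 and 35.9 TPM in sgRUVBL2 (0.59 ± 0.11, adjusted p = 0.000268). No group overlapped its control. The sgRUVBL1 and sgRUVBL2 comparisons of an experiment share their sgRosa libraries.

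T3M-4 gave a smaller ID2 rise. The sgRosa libraries held 39.2, 38.3, 31.5 and 28.9 TPM, the sgRUVBL1 libraries 48.8, 49.6 and 48.6 TPM (0.51 ± 0.11, adjusted p = 0.0012) and the sgRUVBL2 libraries 47, 53.7, 50.2 and 49.1 TPM (0.53 ± 0.11, adjusted p = 0.000457). The sgRUVBL1 call was lost on another scaling, where ID2 changed by 0.22. In CFPAC-1 ID2 changed by -0.02 and -0.00, neither passing.

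BMP4, which AsPC-1 held at a higher level than BMP2, fell in each AsPC-1 experiment. In experiment 2 it went from 144, 153, 158 and 159 TPM to 73.8, 79.1, 76.7 and 82 TPM (-0.97 ± 0.09, adjusted p = 2.21e-07). In experiment 3 it went from 171 to 181 TPM in sgRosa to 67.9, 62.6, 84.2 and 81.7 TPM in sgRUVBL1 (-1.24 ± 0.08, adjusted p = 2.39e-09) and 91.6, 82.8, 101 and 87.9 TPM in sgRUVBL2 (-0.95 ± 0.08, adjusted p = 2.19e-07). All libraries of both knockouts lay below all sgRosa libraries. In CFPAC-1 the libraries labelled sgRUVBL1 held 43.6, 51.1, 60.04 and 61.6 TPM against 80.4, 60.8, 79.6 and 76.1 TPM (-0.46 ± 0.10, adjusted p = 0.00243), overlapping at the top and lost on another scaling (-0.24). BMP4 did not pass in T3M-4 or BxPC-3. BMP2 was high enough to test in 3 lines and rose in T3M-4, from 4.89, 5.83, 5.52 and 4.15 TPM to 8.72, 9.97 and 8.75 TPM in sgRUVBL1 (0.74) and 5.7, 8.77, 9.06 and 6.95 TPM in sgRUVBL2 (0.49).

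ID1 in AsPC-1 again depended on the experiment. In experiment 2 it fell from 340.4, 357, 310.5 and 379 TPM to 227, 188, 197 and 199 TPM in sgRUVBL1 (-0.77 ± 0.08, adjusted p = 6.23e-07), whereas in experiment 3 sgRosa held 131 to 157 TPM, sgRUVBL1 131 to 147 TPM (-0.02 ± 0.10, adjusted p = 0.894) and sgRUVBL2 130.1 to 141 TPM (-0.07 ± 0.10, adjusted p = 0.595). T3M-4 ID1 fell from 1319, 1380.1, 1429.5 and 1334 TPM to 1058, 1051 and 1077 TPM in sgRUVBL1 (-0.36 ± 0.07, adjusted p = 0.000388), and its fall in sgRUVBL2 (-0.17 ± 0.07, adjusted p = 0.0372) was lost without sgRosa 2 or 3 or sgRUVBL2 2, 3 or 4 (-0.24 to -0.12). BxPC-3 ID1 changed by 0.00 and -0.08, with neither passing.

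ID3 and ID4 moved down in T3M-4, the reverse of KLF5 loss. ID3 went from 316, 326, 309 and 234 TPM to 206, 179 and 208 TPM in sgRUVBL1 (-0.57 ± 0.10, adjusted p = 8.37e-05) and to 221, 216, 239 and 205 TPM in sgRUVBL2 (-0.42 ± 0.09, adjusted p = 0.000785). ID4 went from 3.54 to 4.11 TPM to 3.05, 2.54 and 2.49 TPM (-0.37) and 2.64, 2.37, 2.91 and 2.41 TPM (-0.41). In BxPC-3 ID3 rose in sgRUVBL1 (0.60 ± 0.16, adjusted p = 0.0182), a call lost without sgRosa 1 or 2 or sgRUVBL1 4 (0.44 to 0.74), and changed by 0.56 ± 0.18 (adjusted p = 0.0552) in sgRUVBL2.

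SKIL rose in 4 of 5 sgRUVBL1 and 3 of 4 sgRUVBL2 comparisons, all but those of CFPAC-1. In AsPC-1 experiment 3 it went from 25.4, 19.5, 29.3 and 21.9 TPM to 37.9, 37.1, 37.4 and 33.2 TPM in sgRUVBL1 (0.59 ± 0.11, adjusted p = 0.000315) and 38.6, 44.7, 41.5 and 37.9 TPM in sgRUVBL2 (0.75 ± 0.11, adjusted p = 6.42e-05). In T3M-4 it went from 7.71 to 10.2 TPM to 16.1, 18.6 and 15.7 TPM (0.82) and 14.7, 18.2, 12.1 and 13.8 TPM (0.63). BxPC-3 SKIL changed by 0.37 in sgRUVBL1, lost without sgRosa 2 or 4 or sgRUVBL1 1 or 2 (0.35 to 0.42), and by 0.57 in sgRUVBL2. The inhibitor SMAD7 rose in AsPC-1 experiment 3, from 6.06, 6.31, 7.68 and 6.36 TPM to 16.1, 16.9, 11.8 and 12.1 TPM (0.99 ± 0.13, adjusted p = 5.22e-06) and 10.4, 9.62, 9.27 and 11.6 TPM (0.56 ± 0.13, adjusted p = 0.00166), and SMAD6 fell in experiment 2, from 55.4, 52.8, 58.5 and 60.2 TPM to 38.4, 38.9, 37.1 and 37.5 TPM (-0.56 ± 0.10, adjusted p = 0.000246). CFPAC-1 SMAD6 changed by -0.28, lost on another scaling (-0.06) and without sgRosa 3. TGFBI rose in AsPC-1 experiment 3 (0.48 and 0.40) and fell in T3M-4 sgRUVBL1 (-0.35).

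For sgRUVBL1, 5 of 7 members passed in AsPC-1 experiment 2, where 55.8% of all tested genes did, 5 of 8 in experiment 3 (51.9%), 2 of 8 in CFPAC-1 (43.8%), 7 of 10 in T3M-4 (60.5%) and 2 of 8 in BxPC-3 (16%). For sgRUVBL2 these were 5 of 8 in AsPC-1 (43.2%), 0 of 8 by limma in CFPAC-1 (12.1%), where 2 had an unadjusted p under 0.05, 6 of 10 in T3M-4 (54.5%) and 1 of 8 in BxPC-3 (9.76%). These shares lay on either side of those of all genes. Without the libraries labelled sgRosa 2 and 4 of CFPAC-1, BMP2 (-0.43) and SKIL (-0.33) also passed for sgRUVBL1 and TGFBI (0.40) for sgRUVBL2.

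Of the 73 other pathway genes, 15 rose and 7 fell of 41 tested in AsPC-1 experiment 3 after RUVBL1 loss, 10 rose and 16 fell of 42 in AsPC-1 experiment 2, 5 rose and 1 fell of 48 in BxPC-3 and 33 rose and 5 fell of 55 in T3M-4, while 1 rose and 20 fell of 51 in CFPAC-1. All tested genes leaned the same way in T3M-4, with 6080 up and 1933 down, and in CFPAC-1, with 834 up and 4750 down. In AsPC-1 experiment 2 they did not, with 3489 up and 3009 down. For RUVBL2 loss 16 rose and 3 fell in AsPC-1, 28 rose and 4 fell in T3M-4, 3 rose and 1 fell in BxPC-3, and 1 rose and 7 fell in CFPAC-1. Among all tested genes 3936 rose and 1345 fell in AsPC-1, and 5208 rose and 2014 fell in T3M-4. BxPC-3 had 529 up and 679 down, and CFPAC-1 361 up and 1181 down. SMAD3, which carries the TGF-beta signal, rose from 76.5 to 152 TPM (0.97) and 142 TPM (0.86) in AsPC-1 experiment 3 and from 103 to 277 TPM (1.46) and 244 TPM (1.26) in T3M-4. BAMBI, a decoy receptor, fell in AsPC-1 experiment 3 (-0.87 and -0.72). CCN2 rose in T3M-4 (2.04 and 1.67) and fell in AsPC-1 experiment 2 (-0.92). COL1A1 fell from 22.4 to 5.69 TPM in the libraries labelled sgRUVBL1 of CFPAC-1 (-1.58). SMAD4 rose in AsPC-1 experiment 2 (0.23, adjusted p = 0.042). It rose from 7.22 to 10.7 TPM (0.50) and 11 TPM (0.55) in AsPC-1 experiment 3 and from 6.05 to 9.55 TPM (0.58) and 8.56 TPM (0.44) in T3M-4.

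A direct comparison of sgRUVBL1 with sgKLF5 in the same experiment, which leaves out sgRosa, separated the knockouts by ID1. ID1 was higher in sgRUVBL1 in AsPC-1 (1.51 ± 0.10, adjusted p = 6.55e-10), BxPC-3 (1.1 ± 0.08, adjusted p = 5.82e-09) and the libraries of CFPAC-1 (1.44 ± 0.27, adjusted p = 0.00104), and differed by -0.17 ± 0.07 (adjusted p = 0.0559) in T3M-4. In T3M-4 the other targets were lower in sgRUVBL1 than in sgKLF5. TGFBI stood at 325, 302 and 329 TPM against 986, 939, 877 and 874 TPM (-1.52 ± 0.07, adjusted p = 4.15e-11), ID4 differed by -1.5, ID3 by -1.22, SMAD6 by -0.57, ID2 and SMAD7 by -0.48 each and SKIL by -0.38. The SMAD7 call was lost without sgKLF5 3 or 4 or sgRUVBL1 2 or 3 (-0.52 to -0.43) and that of SKIL without sgRUVBL1 1 or 3 (-0.45 to -0.33).

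In AsPC-1 the direct comparison gave mixed directions. ID2 (0.60), SMAD7 (0.78), SKIL (0.45) and TGFBI (0.41) were higher in sgRUVBL1 and ID3 (-1.33) and BMP4 (-0.98) lower. In BxPC-3 ID3 (0.66) and SMAD7 (0.52) were higher and BMP2 (-0.78) and TGFBI (-0.28) lower. SMAD4 was higher in sgRUVBL1 than in sgKLF5 by 0.50 in both AsPC-1 and T3M-4. 7 of 8 members passed in AsPC-1 (58.5% of all genes), 1 of 8 in CFPAC-1 (30.9%), 7 of 10 in T3M-4 (45.8%) and 5 of 8 in BxPC-3 (44%).

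**Figure D3:**
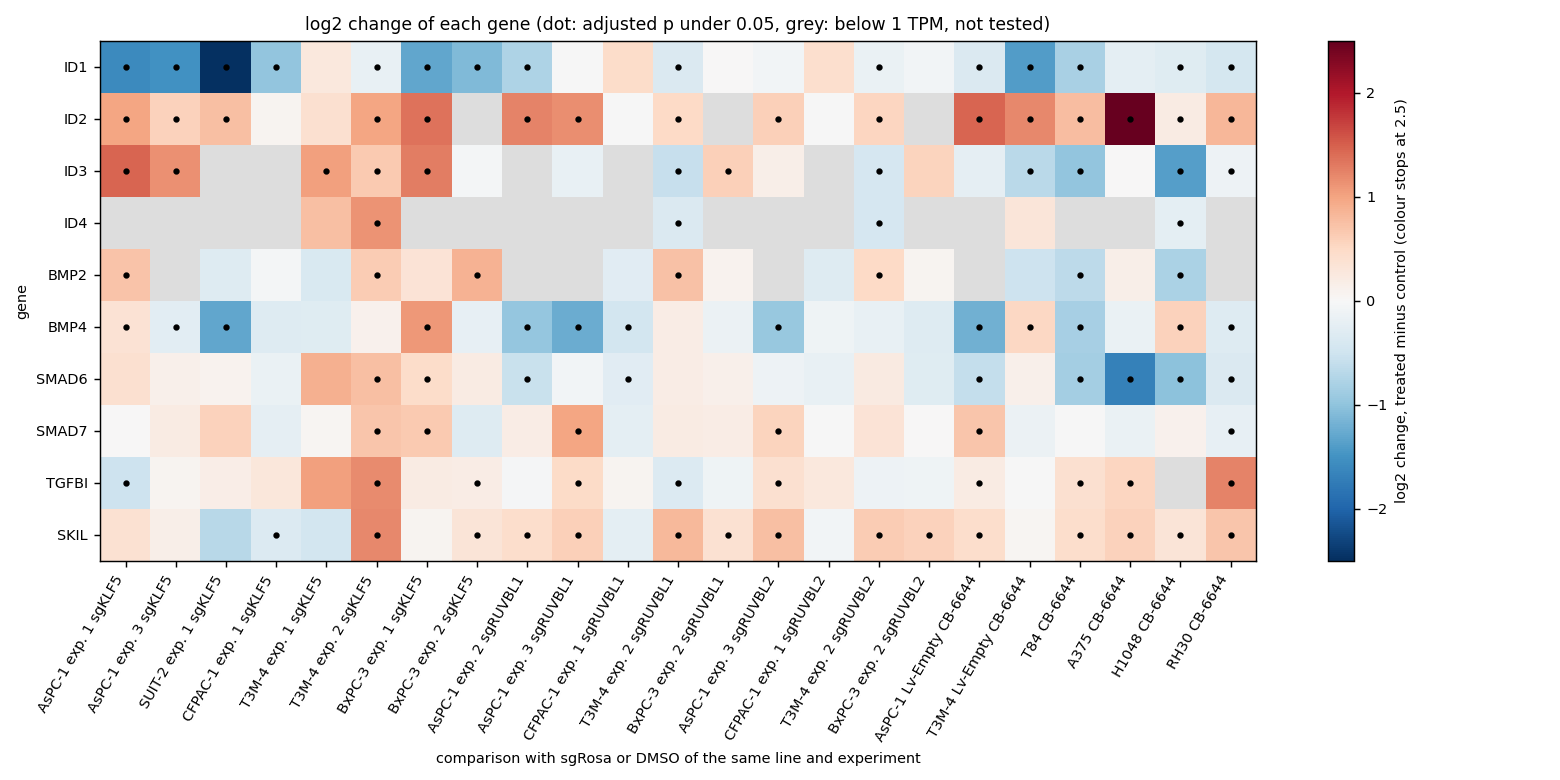
log2 change of each gene (rows) in each comparison with sgRosa or DMSO of the same line and experiment (columns), treated minus control; red is higher, blue lower, a dot marks an adjusted p under 0.05, and grey was below the expression limit. The ID1 row is blue across most sgKLF5 columns (down to -2.52 in SUIT-2), and the ID2 row is red in most columns of all 3 kinds of treatment.

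Inhibition of the ATPase for 24 h raised ID2 in AsPC-1 and T3M-4 cells with the empty vector and lowered ID1. In AsPC-1 ID2 stood at 47.3, 36.5 and 35 TPM in the DMSO libraries with Lv-Empty, RUVBL1_A62T and RUVBL2_dF109, and at 109, 109 and 112 TPM in the Lv-Empty CB-6644 libraries (1.46 ± 0.09, adjusted p = 8.44e-08). In T3M-4 DMSO gave 29.0, 31.3 and 34.4 TPM in the same order and Lv-Empty CB-6644 76.5, 73.4 and 72.7 TPM (1.21 ± 0.08, adjusted p = 3.24e-06). The 3 DMSO libraries of a line were pooled as 1 control group, since each construct had 1. A DMSO difference between constructs therefore enters both the change and the spread. In AsPC-1 the Lv-Empty DMSO library was the highest for ID2, so the change against the pool is larger than against that library alone. In T3M-4 it was the lowest, and the reverse holds.

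ID1 fell by more in T3M-4 than in AsPC-1, a difference that was not tested. In T3M-4 DMSO gave 1139.6, 1216 and 1073 TPM and Lv-Empty CB-6644 492, 423 and 392 TPM (-1.39 ± 0.08, adjusted p = 2.93e-06), and in AsPC-1 DMSO gave 122, 114 and 107 TPM and CB-6644 83.1, 90.1 and 92.4 TPM (-0.36 ± 0.07, adjusted p = 0.000663). No CB-6644 library overlapped a DMSO library. T3M-4 was also the line whose ID1 had changed least after KLF5 knockout, and the difference between the treatments was not tested. ID3 fell in T3M-4, from 322, 209 and 241 TPM to 204, 161 and 122 TPM (-0.67 ± 0.18, adjusted p = 0.013).

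BMP4 fell in AsPC-1 and rose in T3M-4. AsPC-1 went from 69.0, 77.1 and 80.1 TPM to 33.1, 29.9 and 33.3 TPM (-1.21 ± 0.06, adjusted p = 3.59e-08), and T3M-4, where it is scarce, from 2.49, 2.82 and 2.85 TPM to 4.44, 3.85 and 4.6 TPM (0.51 ± 0.11, adjusted p = 0.0055). In AsPC-1 SMAD6 changed by -0.59 ± 0.11 (adjusted p = 0.000582), SMAD7 by 0.69 ± 0.14 (adjusted p = 0.000964), SKIL by 0.43 ± 0.08 (adjusted p = 0.000357) and TGFBI by 0.20 ± 0.06 (adjusted p = 0.00875). The median of all genes rose by 0.19 in this comparison, and on a scaling that removes such a shift TGFBI was at -0.07 and did not pass. In T3M-4 TGFBI gave -0.02 against the pooled DMSO libraries and 0.41 against the Lv-Empty DMSO library alone.

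In AsPC-1 7 of 8 members passed (64.4% of all tested genes) and in T3M-4 4 of 10 (34.3%). Together 6 rose and 5 fell, and on another scaling 5 rose and 7 fell. Of the other pathway genes 17 rose and 7 fell of 40 in AsPC-1, and 9 rose and 9 fell of 57 in T3M-4. All genes that passed split 5783 up and 2110 down in AsPC-1, and 2558 up and 2041 down in T3M-4. KLF10, an early TGF-beta target, rose from 103 to 224 TPM in AsPC-1 (1.22) and TGFB2 fell (-0.98), while in T3M-4 INHBA fell from 9.17 to 1.66 TPM (-1.73) and LEFTY1, a Nodal antagonist at 0.253 TPM on average in DMSO and so tested only because of its level in CB-6644, gave 1.54. SMAD4 rose in AsPC-1 (0.21, adjusted p = 0.0183) and gave 0.26 (adjusted p = 0.129) in T3M-4.

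The resistance variants brought ID1 and ID2 back towards DMSO, and BMP4 in AsPC-1. In T3M-4 the BMP4 difference between Lv-Empty and variant cells in CB-6644 was at most 0.28 and passed against neither variant. In AsPC-1 with CB-6644, ID2 stood at 42.6, 45 and 44.6 TPM with RUVBL1_A62T (0.16 ± 0.09, adjusted p = 0.213 against DMSO) and at 48.8, 49.5 and 49.6 TPM with RUVBL2_dF109 (0.32 ± 0.09, adjusted p = 0.0155). BMP4 stood at 64.6, 65.4 and 67 TPM (-0.19 ± 0.06, adjusted p = 0.0588) and 63.9, 64.1 and 61 TPM (-0.25 ± 0.06, adjusted p = 0.0112). ID1 stood at 117, 114 and 134 TPM and 104, 110.4 and 104 TPM, and neither change passed. The small dF109 rise of ID2 and that of SKIL (0.24) did not pass on another scaling (0.13 and 0.05), nor without either variant's DMSO library or RUVBL2_dF109 CB-6644 library 2, and SKIL not without library 1 or 3 either (0.24 to 0.45 and 0.18 to 0.30).

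In T3M-4 ID1 stood at 1126, 1067 and 1089 TPM with RUVBL1_A62T (-0.06 ± 0.08, adjusted p = 0.537) and at 886, 872 and 889.8 TPM with RUVBL2_dF109 (-0.37 ± 0.08, adjusted p = 0.00826). ID2 remained above DMSO, at 45, 42.3 and 45.4 TPM (0.48 ± 0.08, adjusted p = 0.00435) and 52.3, 52.7 and 53.7 TPM (0.73 ± 0.08, adjusted p = 0.000518). SKIL was at 4.91, 11.6 and 8.87 TPM in DMSO, at 7.86, 8.77 and 8.22 TPM in Lv-Empty CB-6644, and at 15.6, 14.6 and 16.3 TPM (0.87) and 14.3, 16 and 15.7 TPM (0.86) with the variants in CB-6644. The Lv-Empty DMSO library was the lowest for SKIL, and the SKIL changes ran from 0.57 to 1.11 for RUVBL1_A62T and from 0.55 to 1.1 for RUVBL2_dF109 as single libraries were left out. All genes together shifted by 0.33 and 0.29 in these comparisons, and the RUVBL1_A62T rise of ID2 did not pass on another scaling (0.10). ID3 gave -0.54 and -0.49 and BMP2 0.70 with RUVBL1_A62T. Each of these 3 calls was lost without the Lv-Empty DMSO library or any of the variant's own CB-6644 libraries (-0.68 to -0.37, -0.62 to -0.31 and 0.36 to 0.95), and those of ID3 also without the RUVBL2_dF109 DMSO library.

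For the variants against DMSO 0 of 8 members passed by limma in AsPC-1 with RUVBL1_A62T (3 had an unadjusted p under 0.05, and 12.7% of all genes passed), 3 of 8 with RUVBL2_dF109 (33.4%), and 4 of 10 (50%) and 4 of 10 (37.6%) in T3M-4. Of these 11, 7 rose and 4 fell, but on another scaling 3 rose and 11 fell, so the balance of directions in variant cells depends on the scaling. Of the other pathway genes 2 rose and 1 fell with RUVBL1_A62T and 9 rose and 1 fell with RUVBL2_dF109 of 40 in AsPC-1, and 27 rose and 2 fell and 19 rose and 1 fell of 57 in T3M-4. Among all genes the split in T3M-4 was 6081 up and 617 down with RUVBL1_A62T and 4591 up and 447 down with RUVBL2_dF109. In AsPC-1 it was 1318 up and 243 down, and 3595 up and 503 down. SMAD4 rose in T3M-4 with RUVBL1_A62T (0.42) and RUVBL2_dF109 (0.48) and in AsPC-1 with RUVBL2_dF109 (0.19, adjusted p = 0.04997), and gave 0.13 (adjusted p = 0.211) with RUVBL1_A62T.

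The difference between empty-vector and variant cells in CB-6644 was tested without the DMSO libraries. Such a difference holds both the response to CB-6644 and any standing difference between constructs. With 1 DMSO library per construct these cannot be told apart. For SKIL in T3M-4 the Lv-Empty library was already the lowest in DMSO. In AsPC-1 ID2 was higher in Lv-Empty than with RUVBL1_A62T by 1.3 ± 0.09 (adjusted p = 5.27e-07) and than with RUVBL2_dF109 by 1.14 ± 0.09 (adjusted p = 1.51e-06), and BMP4 was lower by -1.01 and -0.95. In T3M-4 ID1 was lower by -1.33 ± 0.08 (adjusted p = 9.83e-06) and -1.02 ± 0.08 (adjusted p = 0.000146), and ID2 higher by 0.73 and 0.48. BMP2 gave -1.23 and -0.95, SKIL -0.83 and -0.82, and ID4 0.45 and 0.48 in the same cells. In AsPC-1 SMAD6 gave -0.62 and -0.71, SMAD7 0.50 and 0.42 and ID1 -0.45 and -0.26. In AsPC-1 6 of 8 members passed against RUVBL1_A62T (51.1% of all genes) and 6 of 8 against RUVBL2_dF109 (47.2%), and in T3M-4 5 of 10 (50.6%) and 5 of 10 (34.6%). These pairs share the Lv-Empty CB-6644 libraries. In AsPC-1 the SMAD7 difference from RUVBL2_dF109 was lost without library 1 or 3 of that variant or 2 or 3 of Lv-Empty (0.36 to 0.51). In T3M-4 the ID4 difference from RUVBL1_A62T was lost without library 2 of that variant (0.39 to 0.52), that from RUVBL2_dF109 without any library of the variant or Lv-Empty 2 (0.46 to 0.50), and the SKIL difference from RUVBL2_dF109 without its library 2 or 3 (-0.86 to -0.78).

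**Figure D4:**
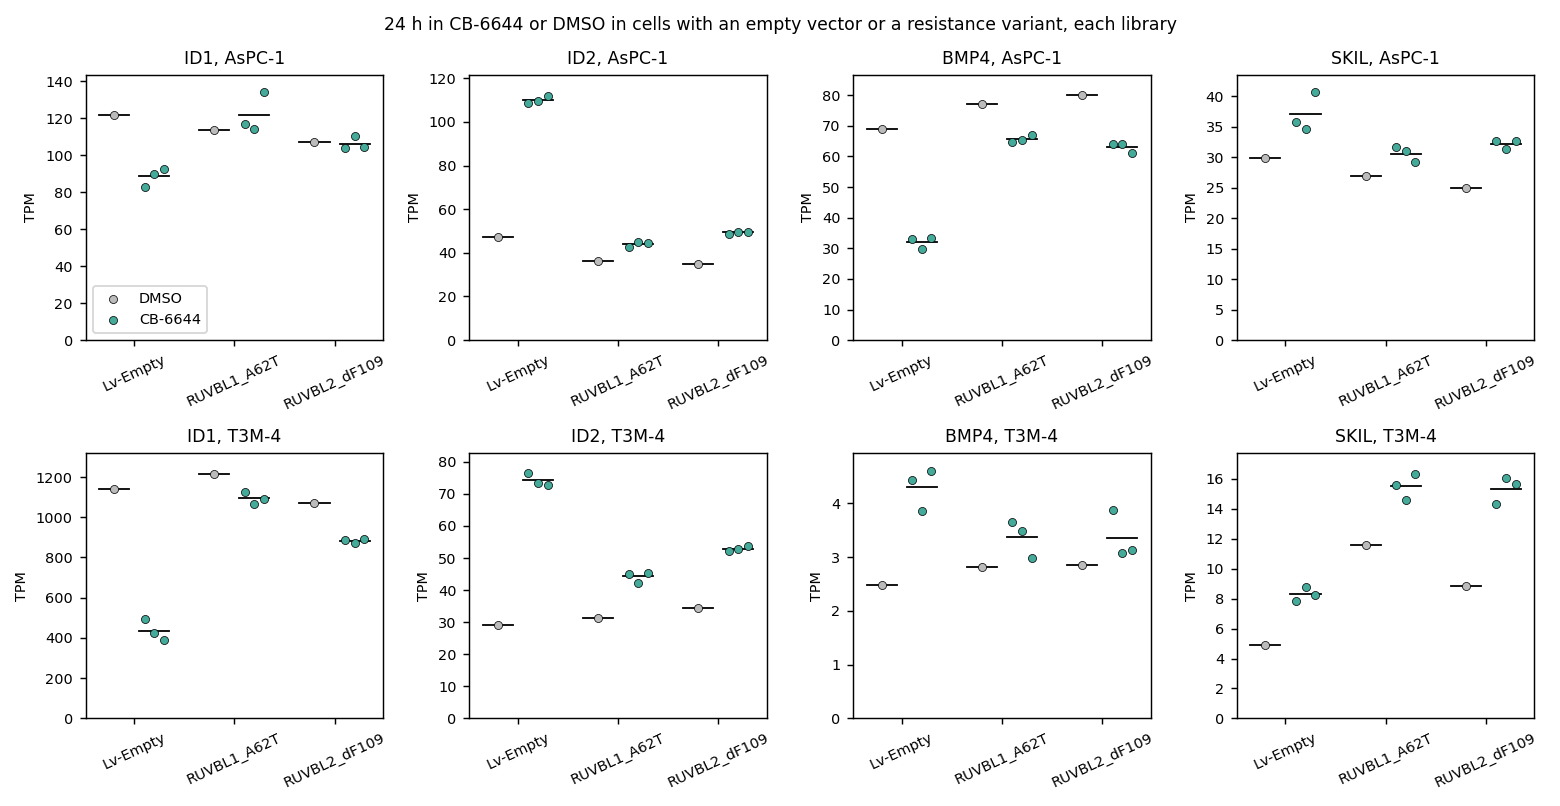
ID1, ID2, BMP4 and SKIL in TPM after 24 h in DMSO (grey, 1 library per construct) or CB-6644 (green, 3 libraries) in AsPC-1 and T3M-4 cells with Lv-Empty, RUVBL1_A62T or RUVBL2_dF109; the bar is the mean. ID2 in Lv-Empty CB-6644 is above every other library in both lines (108.8 to 112 TPM in AsPC-1), and ID1 in T3M-4 drops to 392 to 492 TPM only there.

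The lines from other cancers shared a fall of SMAD6, and ID2 rose beyond the shift of all genes in T84, A375 and RH30. A375 had the largest ID2 change of all comparisons with DMSO, from 3.58, 3.46, 1.95 and 2.32 TPM to 53.6, 58.5, 58 and 58.4 TPM (3.95 ± 0.12, adjusted p = 2.27e-10). T84 went from 67, 61.4, 59.2 and 62.8 TPM to 106, 105, 109 and 108 TPM (0.77 ± 0.05, adjusted p = 1.16e-09) and RH30 from 44.3, 41.3, 41.9 and 40.5 TPM to 75.4, 75.6, 71.9 and 78.2 TPM (0.83 ± 0.04, adjusted p = 8.34e-10). In H1048, which holds the most ID2, the change was 0.20 ± 0.04 (adjusted p = 0.000245), no larger than the 0.18 shift of all genes, and it was -0.02 on another scaling.

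SMAD6, the inhibitor that prefers the BMP branch, fell in all 4. It went from 17.3, 15.6, 14.3 and 14.9 TPM to 4.57, 3.4, 4.33 and 4.16 TPM in A375 (-1.7 ± 0.08, adjusted p = 5.18e-09) and from 19.5, 18.7, 18.5 and 21.4 TPM to 8.85, 9.57, 9.65 and 8.2 TPM in H1048 (-1.03 ± 0.06, adjusted p = 2.99e-08). In T84 it went from 14.1, 14.5, 13.5 and 11.9 TPM to 7.11, 6.86, 7.67 and 6.65 TPM (-0.84 ± 0.08, adjusted p = 1.12e-07). RH30 had little SMAD6 and changed by -0.37 ± 0.09 (adjusted p = 0.00308). No CB-6644 library overlapped a DMSO library of its line for SMAD6, ID2 or, where it is expressed, TGFBI.

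TGFBI rose in the 3 lines that express it. RH30 went from 54.2, 55.1, 54.5 and 54.7 TPM to 133, 130.5, 129 and 126 TPM (1.23 ± 0.03, adjusted p = 2.22e-12), A375 changed by 0.54 ± 0.03 (adjusted p = 1.69e-08) and T84 by 0.40 ± 0.04 (adjusted p = 6.94e-07). SKIL rose in all 4 lines, by 0.70 in RH30, 0.58 in A375, 0.43 in T84 and 0.32 in H1048, of which the last did not pass on another scaling (0.11).

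ID1 and ID3 fell in most of these lines. ID1 changed by -0.82 ± 0.08 (adjusted p = 1.21e-07) in T84, -0.45 ± 0.06 (adjusted p = 1.26e-05) in RH30 and -0.31 ± 0.04 (adjusted p = 5.77e-06) in H1048. A375 gave 149.5, 145, 99.5 and 104 TPM in DMSO and 99.3, 98.3, 113 and 103 TPM in CB-6644 (-0.24 ± 0.12, adjusted p = 0.0876), with DMSO libraries 1 and 2 high and 3 and 4 within the range of CB-6644. ID3 in H1048 went from 324, 326, 326 and 335 TPM to 129, 120.4, 124 and 129 TPM (-1.38 ± 0.03, adjusted p = 1.08e-11), in T84 from 40.6, 39.5, 39.1 and 35.4 TPM to 20.7, 18.4, 17.9 and 19.3 TPM (-0.98 ± 0.06, adjusted p = 1.88e-09), and in RH30 by -0.13. ID4 in H1048 changed by -0.24.

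The ligands fell in T84, BMP4 from 99.95 to 105 TPM to 62.6, 55.5, 57.6 and 55.3 TPM (-0.83 ± 0.05, adjusted p = 8.67e-10) and BMP2 by -0.65 ± 0.08 (adjusted p = 1.74e-06). In H1048 they parted, with BMP2 falling from 52.7, 51.5, 52.3 and 50.3 TPM to 28.4, 30.9, 29.5 and 28.6 TPM (-0.80 ± 0.04, adjusted p = 3.6e-09) and BMP4 rising from 10.8, 11.2, 9.36 and 11.5 TPM to 17, 14.4, 16.6 and 18.3 TPM (0.59 ± 0.08, adjusted p = 2.13e-05). In RH30 BMP4 changed by -0.32, lost without CB-6644 library 3 or DMSO library 1 (-0.39 to -0.22), and SMAD7 by -0.20, lost without CB-6644 library 1, 3 or 4 or DMSO library 2 (-0.28 to -0.16).

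In T84 8 of 9 members passed, in A375 4 of 9, in H1048 8 of 9 and in RH30 8 of 8, where 71.4%, 81.1%, 77.9% and 77.7% of all tested genes did. Most genes moved in these lines, so the counts say little of the members. Of the other pathway genes 17 rose and 11 fell of 41 in T84, 29 rose and 18 fell of 52 in A375, 25 rose and 20 fell of 60 in H1048, and 31 rose and 18 fell of 54 in RH30. LEFTY1 went from a mean of 0.295 to 6.36 TPM in A375 (2.5) and from 0.420 to 2.89 TPM in H1048 (1.46), and was tested there only because of its level in CB-6644. The BMP antagonist GREM1 rose from 30.2 to 98.7 TPM in RH30 (1.68) and fell from 23.1 to 11.1 TPM in T84 (-1.0), and ATOH8 fell in RH30 (-1.35). SMAD4 rose in all 4 lines, by 0.22 in A375, 0.25 in T84 and H1048 each and 0.46 in RH30.

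**Figure D5:**
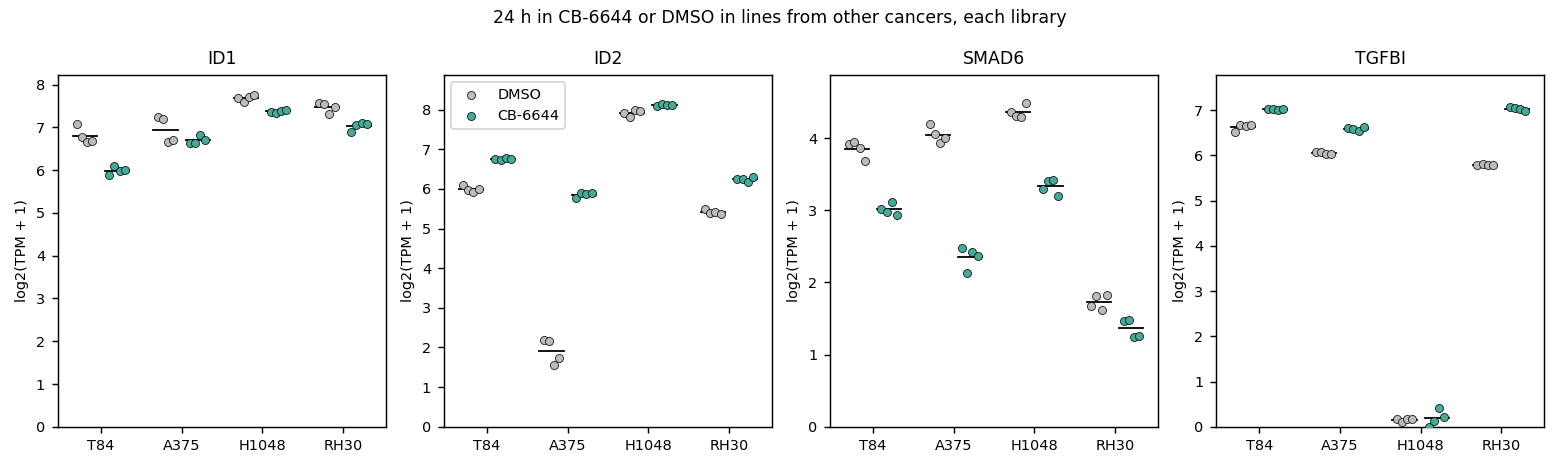
ID1, ID2, SMAD6 and TGFBI as log2(TPM + 1) after 24 h in DMSO (grey) or CB-6644 (green) in T84, A375, H1048 and RH30, 4 libraries each; the bar is the mean. ID2 in A375 rises from 1.95 to 3.58 TPM in DMSO to 53.6 to 58.5 TPM in CB-6644, SMAD6 is lower in all 4 lines, and TGFBI is near 0 in H1048.

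Other knockouts showed how the genes moved after loss of genes needed for cell division. CDK1 mRNA fell in T3M-4 (-1.47) and BxPC-3 (-0.61) sgCDK1 libraries and did not pass in AsPC-1 (-0.19) or CFPAC-1 (-0.10), and RPA3 mRNA fell in experiment 2 of T3M-4 (-0.34) and BxPC-3 (-0.50) and did not pass in the other sgRPA3 groups. For sgCDK1 2 of 8 members passed in AsPC-1 (16.7% of all genes), BMP4 (-0.47) and TGFBI (0.38). 2 of 10 passed in T3M-4 (16.8%), ID4 (0.45) and SMAD6 (0.42), and 3 of 8 in BxPC-3 (5.82%), ID1 (-0.43), SMAD6 (0.61) and TGFBI (0.58). In the CFPAC-1 libraries labelled sgCDK1 limma called 0 of 8 members and 0% of all genes, with 0 members at an unadjusted p under 0.05. These groups held 2 libraries, and single ones carried most calls. BMP4 and TGFBI in AsPC-1 were lost without sgCDK1 1 (-0.40 and 0.33 at the least), ID4 in T3M-4 without sgCDK1 2 (0.34), SMAD6 in T3M-4 without either sgCDK1 library or sgRosa 1, 2 or 4 (0.30 to 0.50), ID1 in BxPC-3 without either sgCDK1 library (-0.48 to -0.38) and SMAD6 in BxPC-3 without either sgCDK1 library or sgRosa 2, 3 or 4 (0.49 to 0.73). ID4 (0.32) and SMAD6 (0.26) in T3M-4 did not pass on another scaling.

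For sgRPA3 1 of 8 members passed in AsPC-1 (0.654% of all genes), ID2, which went from 23.8, 18.1, 25.1 and 23.4 TPM to 39.5 and 33.2 TPM (0.67 ± 0.13, adjusted p = 0.0143). The KLF5 knockout, which shares these sgRosa libraries, gave 0.57. BxPC-3 experiment 2 had 4 of 8 (20.8%), ID1 up from 369 to 427 TPM to 569 and 544 TPM (0.45), ID3 (0.99), SKIL (0.46) and TGFBI (-0.26). T3M-4 experiment 2 had 3 of 10 (24.6%), ID4 (0.42), SMAD6 (0.49) and TGFBI (-0.40). Limma called 0 of 10 in T3M-4 experiment 1 (0%), 0 of 9 in BxPC-3 experiment 1 (0.307%) and 0 of 8 in CFPAC-1 (11.6%), with 0, 0 and 1 members at an unadjusted p under 0.05. The calls of ID2 in AsPC-1 (0.54 to 0.79) and of SKIL (0.39 to 0.52) and TGFBI (-0.28 to -0.23) in BxPC-3 were lost without either sgRPA3 library, those of ID1 (0.41 to 0.48) and ID3 (0.82 to 1.12) in BxPC-3 without sgRPA3 1, and those of ID4 (0.23 to 0.60) and SMAD6 (0.34 to 0.63) in T3M-4 without sgRPA3 2.

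Loss of CHD4 in AsPC-1 changed 7 of 8 members (50% of all genes). ID1 fell from 324, 343, 353 and 383 TPM to 172, 213, 214 and 227 TPM (-0.77 ± 0.08, adjusted p = 8.97e-06) and SMAD6 from 56.1, 55.6, 56.2 and 53.6 TPM to 29, 26.1, 31.8 and 31.9 TPM (-0.88 ± 0.07, adjusted p = 9.87e-07), while ID3 rose from 1.1, 1.83, 1.16 and 0.538 TPM to 2.16, 3.55, 2.66 and 3.4 TPM (0.89 ± 0.19, adjusted p = 0.00187). BMP4 (-0.51), TGFBI (0.56) and SMAD7 (0.32) passed too, and ID2 (0.26 ± 0.10, adjusted p = 0.0499) was lost without any single library but sgCHD4 1 (0.20 to 0.36), and SMAD7 was lost without sgCHD4 3 or sgRosa 3 or 4 (0.25 to 0.38). CHD4 mRNA itself was higher in the libraries labelled sgCHD4 (0.28, adjusted p = 0.0494). After loss of SERPINB5, whose mRNA fell by 1.35 on the log2 scale, limma called 0 of 7 members (0.0343% of all genes), with 1 at an unadjusted p under 0.05.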

How the data were processed

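RNA-seq libraries were single-end, 76 bases, from poly-A RNA. Per the study's methods the authors quantified them with kallisto against hg38, removed low-abundance transcripts (limit not given in the sources used here) and summed transcripts with tximport. The deposited unit is TPM per gene, with a sum of 1e+06 in each of 183 libraries and 11292 to 14024 genes at 1 TPM or more. The tables hold no counts, so depth is unknown and no counting interval can be given. Changes were fitted on log2(TPM + 1), with a pseudocount of 1, keeping genes whose average in the libraries of a fit was 1 TPM or more, by limma 3.58.1 (empirical Bayes with a trend, R 4.3.3), in 16 fits of 1 line and experiment each, with Benjamini-Hochberg adjustment over all genes tested and a threshold of 0.05. In the pancreatic CB-6644 fits the 3 DMSO libraries of a line formed 1 control group. The procedure was tested on simulated data. It recovered most planted changes in the AsPC-1 comparisons simulated, fewer in SUIT-2 and few in T3M-4 experiment 1, where low counts of calls therefore say little. The share of false calls was above the 0.05 threshold in every comparison simulated. It was slightly above in AsPC-1, higher in SUIT-2 and highest, on few calls, in T3M-4 experiment 1, so calls there are less certain too.

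The 10 members and the targeted genes are named in the comparisons that bear on them, and SMAD4 wherever it passed. Of 73 other pathway genes, up to 3 per comparison are named, those with the largest change among genes that passed and did not overlap between groups. A gene that this rule names is not reported here. The members and lists were chosen with earlier results of these data known. Sequences are from RefSeq (GRCh38.p14), where BMP2 had no entry. Alternatives were 0.1 as pseudocount, keeping all genes, an average of 5 TPM or more, median-of-ratios scaling (called another scaling here), only the compared groups in the fit, only the Lv-Empty DMSO library as control, a replicate block, each library left out in turn and, chosen after seeing the data, CFPAC-1 without the libraries labelled sgRosa 2 and 4.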

Additional observations from a re-analysis of the deposited data

Results flagged for a closer look

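Each member was examined in each group of 4 to 10 libraries, 255 combinations of a gene and a group, and in 19 of them 1 library stood apart from the rest. The limit used lets about 1 in 20 through by chance, and a single library gave several of the 19. The library sgKLF5 2 of T3M-4 experiment 1 was low for ID2 (47.8 TPM, others 107 to 119), SMAD6 (9.68 TPM, others 21.8 to 23.6) and TGFBI (299.9 TPM, others 687 to 724). The library sgRosa 1 of SUIT-2 was low for ID2 (30.1 TPM, others 39.7 to 40.2), SMAD6 (8.96 TPM, others 16.7 to 18.1), SMAD7 (3.67 TPM, others 5.68 to 5.92) and TGFBI (115 TPM, others 195 to 203). In AsPC-1 TGFBI was low in sgSERPINB5 4 (342 TPM, others 413 to 426) and SKIL in sgRUVBL1 4 of experiment 3 (33.2 TPM, others 37.1 to 37.9). In T3M-4 experiment 2 BMP4 was low in sgKLF5 2 (2.49 TPM, others 3.15 to 3.22), SMAD7 in sgRosa 4 (1.16 TPM, others 2.78 to 3.02), and TGFBI high in sgRUVBL2 4 (398 TPM, others 359 to 363). In BxPC-3 ID1 was low in sgKLF5 2 of experiment 1 (96.0 TPM, others 106 to 107) and in sgRUVBL1 1 of experiment 2 (339 TPM, others 429 to 435). In T84 TGFBI was low in DMSO 1 (91.0 TPM, others 99.6 to 101) and SKIL high in CB-6644 1 (20.02 TPM, others 18.4 to 18.5). In A375 ID2 was low in CB-6644 1 (53.6 TPM, others 58.0 to 58.5), and in RH30 ID3 (92.2 TPM, others 83.6 to 84.4) and SMAD7 (10.4 TPM, others 7.88 to 8.30) were high in CB-6644 2.

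Some genes passed in opposite directions under the same kind of treatment, and those differences were not tested. After KLF5 knockout BMP4 changed by 0.36 in AsPC-1 experiment 1 and 1.08 in BxPC-3 experiment 1 but by -0.26 in AsPC-1 experiment 3 and -1.29 in SUIT-2. TGFBI changed by 1.18 in T3M-4 experiment 2 and 0.18 in BxPC-3 experiment 2 but by -0.51 in AsPC-1 experiment 1. SKIL changed by 1.19 in T3M-4 experiment 2 and 0.33 in BxPC-3 experiment 2 but by -0.34 in CFPAC-1. After RUVBL1 knockout TGFBI changed by 0.48 in AsPC-1 experiment 3 and -0.35 in T3M-4. In CB-6644 BMP4 changed by -1.21 in AsPC-1 and 0.51 in T3M-4 with the empty vector, and by -0.83 in T84 and -0.32 in RH30 but 0.59 in H1048.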

How the results depend on the processing

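Of the recomputed values of single members, 4760 kept their side of the threshold, 199 no longer passed and 107 newly passed. A further 3 reversed in direction and passed in the main or the alternative setting. A change of direction in a value that passed in neither was not counted. TGFBI in AsPC-1 Lv-Empty cells in CB-6644 went from 0.20 to -0.065 and ID2 in H1048 from 0.20 to -0.017 under median-of-ratios scaling, by which all genes are recentred. TGFBI in T3M-4 Lv-Empty cells went from -0.02 to 0.41 when only the Lv-Empty DMSO library was the control. Of the counts of members that passed, that for CB-6644 in resistance-variant cells fell from 11 to 6 with only the compared groups fitted. The other counts kept within 1.5 times their value under the alternatives that left out no single library.

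With each library left out in turn, the count of members that passed ran from 32 to 39 for KLF5 knockout (35 with all libraries), 19 to 22 for RUVBL1 (21), 11 to 13 for RUVBL2 (12), 18 to 21 for RUVBL1 against KLF5 (20), 11 to 16 for CDK1 and RPA3 (15), 5 to 7 for CHD4 and SERPINB5 (7), 11 to 14 for CB-6644 with the empty vector (11), 8 to 16 in variant cells (11), 20 to 24 for empty vector against variant (22), and 26 to 30 in the other lines (28).

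With the replicate number as a block, the count of members that passed was 35 for KLF5, 21 for RUVBL1, 12 for RUVBL2, 20 for RUVBL1 against KLF5, 13 for CDK1 and RPA3, 6 for CHD4 and SERPINB5, 27 for empty vector against variant and 28 in the other lines. The deviations of same-numbered libraries correlated at -0.46 to 0.37 over 41 comparisons with shared numbers. In 0 of 27 with 3 or more pairs were all correlations over 0.1, or every library most like its own number. This check showed no pairing by number, but it cannot exclude that same-numbered libraries were handled together. No paired analysis was possible because the pooled DMSO libraries carry 1 number for the comparisons of CB-6644 with DMSO in AsPC-1 and T3M-4.

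Limits are those of TPM tables. Depth is unknown, low values are uncertain, and a scaled value is relative to all genes of its library. Groups of 1 DMSO library per construct, or 2 libraries for sgCDK1, sgRPA3 and some sgRosa groups, give few degrees of freedom. Guides cannot be told apart within a knockout that used more than 1, and the study lists only 1 guide each for sgCDK1 and sgRPA3.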
